A study of Mus musculus with 4 samples.

Results

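The cytosolic ribosomal protein genes of mouse embryonic stem cells were examined before and after treatment with ATRA (all-trans retinoic acid), which activates the nuclear receptors of that name. The genes were chosen by symbol: a symbol that started with Rpl or Rps and a digit, or Rplp0, Rplp1, Rplp2 or Rpsa, with pseudogene symbols containing -ps and the Rps6k kinases left out. This gave 86 genes of the 23420 gene symbols counted. Of these, 52 were large-subunit symbols and 34 small-subunit symbols. By role, 77 were canonical ribosomal proteins, 46 of the large and 31 of the small subunit. Another 8 were paralogs of a canonical gene. The last, Rps19bp1, encodes a binding protein of Rps19 and belongs by its symbol only.

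RNA was sequenced from 4 libraries of wild-type E14 cells, a feeder-free mouse embryonic stem cell line grown with leukemia inhibitory factor: 2 sampled at 0 h, and 2 given 1 µM ATRA for 24 h. The dose is micromolar in the titles and protocol, which were used, and millimolar in a treatment label. The labels did not say whether the 0 h cells received the vehicle, dimethyl sulfoxide, or whether replicates were separate cultures. The spread that the p-values rest on is that of these libraries and may be technical. The groups differ in both treatment and time, and the part of each cannot be told apart.

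Each cytosolic ribosome is built from a large and a small subunit, in which these proteins are assembled with ribosomal RNA. The large subunit joins amino acids and the small subunit decodes the messenger RNA. Ribosomal proteins are needed in near equal numbers, and their messenger RNAs share a start motif that links their translation to growth signals. Most of these genes have many processed pseudogenes, copies of the spliced messenger RNA elsewhere in the genome, so short reads can match several places.

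The paralogs and their parents differed enough in sequence to be told apart. Coding sequences were taken from the GENCODE M21 annotation of GRCm38. For Rps4y2, which is listed there as a pseudogene, the whole transcript of 789 bases was used as the coding sequence. None of the 8 pairs shared a stretch of 50 bases of these sequences. The pairs below, of equal length, are shown because they hold the paralog without a measurable parent (Rps27l) and the pair of which both genes had higher CPM after ATRA (Rpl39l and Rpl39). Capitals mark the positions at which a paralog and its parent differ, counted position by position along the coding strand. Rps27 (chr3:90212522-90213651, minus strand) and Rps27l (chr9:66946086-66949516, plus strand) matched at 192 of 252 positions (76.2%).
Rps27: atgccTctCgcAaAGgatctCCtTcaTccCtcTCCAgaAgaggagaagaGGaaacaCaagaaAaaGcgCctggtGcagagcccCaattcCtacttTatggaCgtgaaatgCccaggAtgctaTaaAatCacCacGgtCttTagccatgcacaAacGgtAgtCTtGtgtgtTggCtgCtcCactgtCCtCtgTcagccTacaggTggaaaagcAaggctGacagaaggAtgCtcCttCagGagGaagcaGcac
Rps27l: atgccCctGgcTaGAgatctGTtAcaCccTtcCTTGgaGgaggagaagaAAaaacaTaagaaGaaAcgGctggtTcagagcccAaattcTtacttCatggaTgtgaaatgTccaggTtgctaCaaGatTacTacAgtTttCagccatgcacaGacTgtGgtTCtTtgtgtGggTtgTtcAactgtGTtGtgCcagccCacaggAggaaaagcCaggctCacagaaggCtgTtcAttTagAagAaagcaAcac
Rpl39 (chrX:37082520-37085402, minus strand) and Rpl39l (chr16:10170226-10174911, plus strand) matched at 130 of 153 positions (85.0%).
Rpl39: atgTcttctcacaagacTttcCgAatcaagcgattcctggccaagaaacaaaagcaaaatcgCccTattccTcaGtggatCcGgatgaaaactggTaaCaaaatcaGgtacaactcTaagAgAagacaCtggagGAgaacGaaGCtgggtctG
Rpl39l: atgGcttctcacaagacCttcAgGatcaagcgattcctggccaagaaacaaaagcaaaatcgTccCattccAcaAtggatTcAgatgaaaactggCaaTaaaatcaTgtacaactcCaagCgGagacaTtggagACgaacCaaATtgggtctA
In both pairs the differences were spread along the coding sequence rather than gathered in 1 stretch. The other pairs ranged from 53.0% identity (Rpl7l1 and Rpl7) to 87.7% (Rpl36al and Rpl36a, 279 of 318 positions). Although a paralog could be told from its parent, many members could not be told from their pseudogenes by coding sequence. In 30 of the 86 members every 50-base stretch of the coding sequence also occurred in another annotated gene, and in 4 none did. Over whole transcripts, which also hold untranslated bases, less was shared. The members' median share of 50-base stretches found in no other gene was 45.9% there and 9.73% in coding sequence.

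The libraries held 31005634 and 21484812 gene counts at 0 h and 13337972 and 11086233 after ATRA, so the ATRA libraries were shallower. Rarb, Cyp26a1 and Stra8, known targets of ATRA, all rose. Rarb, the retinoic acid receptor beta, had a log2 fold change of 7.79 ± 0.49 (SE, edgeR quasi-likelihood test, adjusted p = 0.0229). Markers of embryonic stem cells (8 of 8 detected) summed to 3619 and 3621 CPM (counts scaled to library size with TMM factors) at 0 h and to 1649 and 1302 after ATRA. Of 8 fibroblast markers, none was at 0 in all libraries, and they summed to 165 to 226 CPM at 0 h and 115 to 120 CPM after ATRA. The 7 endoderm markers went from 24.7 and 25.2 CPM to 49.6 and 76.4 CPM, with Ttr at 0 throughout. The 6 neural markers summed to 299 to 397 CPM over the 4 libraries. In bulk RNA, fewer cells of a type and less RNA per cell cannot be told apart. The part of these shifts in the results below was not tested.

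Ribosomal protein genes took a smaller share of the counts after ATRA. Their share was 2.26% and 2.32% in the 0 h libraries and 1.60% and 1.01% in the ATRA libraries. The groups did not overlap, and the second ATRA library was lowest. The means were 2.29% ± 0.04 and 1.31% ± 0.42 (SD, n = 2 each), a difference of -0.99 percentage points. The exact two-sided permutation test gave p = 0.333, the smallest value that 2 against 2 libraries allow. After counts were divided by a trend on GC content (the share of G and C bases in a transcript), the difference was -0.66 percentage points.

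**Figure D1:**
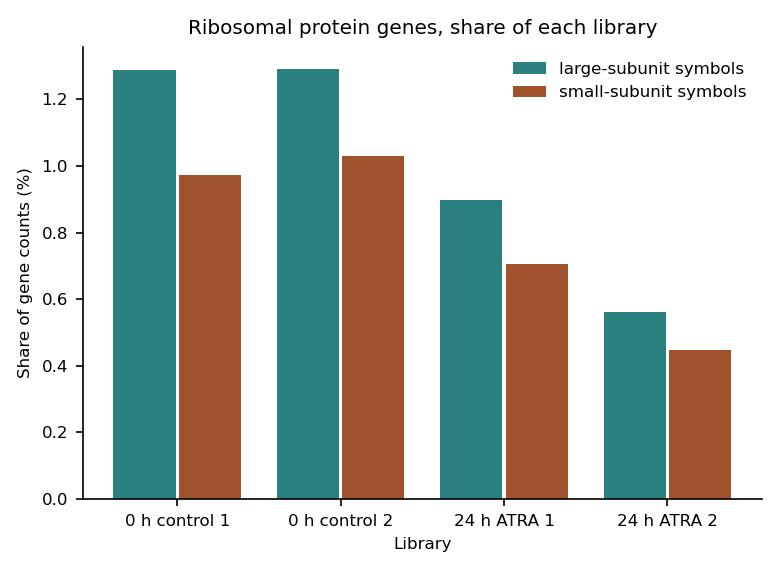
Share of all gene counts (%, y axis) held by large-subunit and small-subunit ribosomal protein symbols in each of the 4 libraries (x axis), with 1 bar per library and subunit. Both bars are lower in both ATRA libraries than in either control, and lowest in the second ATRA library (0.561% large, 0.447% small).

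Both subunits were lower together. Large-subunit symbols held 1.29% of counts in each 0 h library and 0.897% and 0.561% after ATRA. Small-subunit symbols held 0.973% and 1.03% at 0 h and 0.707% and 0.447% after ATRA. The log2 ratio of large to small counts was 0.40 and 0.33 at 0 h and 0.34 and 0.33 after ATRA, so the groups overlapped. The difference was -0.03 (exact two-sided permutation p = 1). Without Rpl4, the most abundant member by count, the difference was -0.20.

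Gene by gene, no ribosomal protein gene passed the main test. With edgeR's quasi-likelihood test and Benjamini-Hochberg adjustment over the 14256 genes tested, 0.603% of all tested genes were called at adjusted p under 0.05, 62 higher and 24 lower. Of the 82 members tested, 0 were called in either direction, and the lowest adjusted p was 0.068 (Rplp1). An unadjusted p under 0.05 was found in 37 of them (45.1%) and in 40.1% of all tested genes. DESeq2 on the same counts called 1 member higher (Rpl22l1) and 36 lower, where it called 12.5% of all tested genes higher and 18% lower. The members' median log2 fold change was -0.91 against -0.02 over all tested genes, and 63 of 82 were negative. The medians were -0.88 for 49 large-subunit symbols and -1.08 for 33 small-subunit symbols, and the subunits' difference was not tested beyond the ratio above. In 55 of the 82 members (67.1%) both ATRA libraries lay below both controls, against 41.5% of all tested genes. In 15 members (18.3%) both lay above, against 40% of all tested genes, and 12 overlapped.

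**Figure D2:**
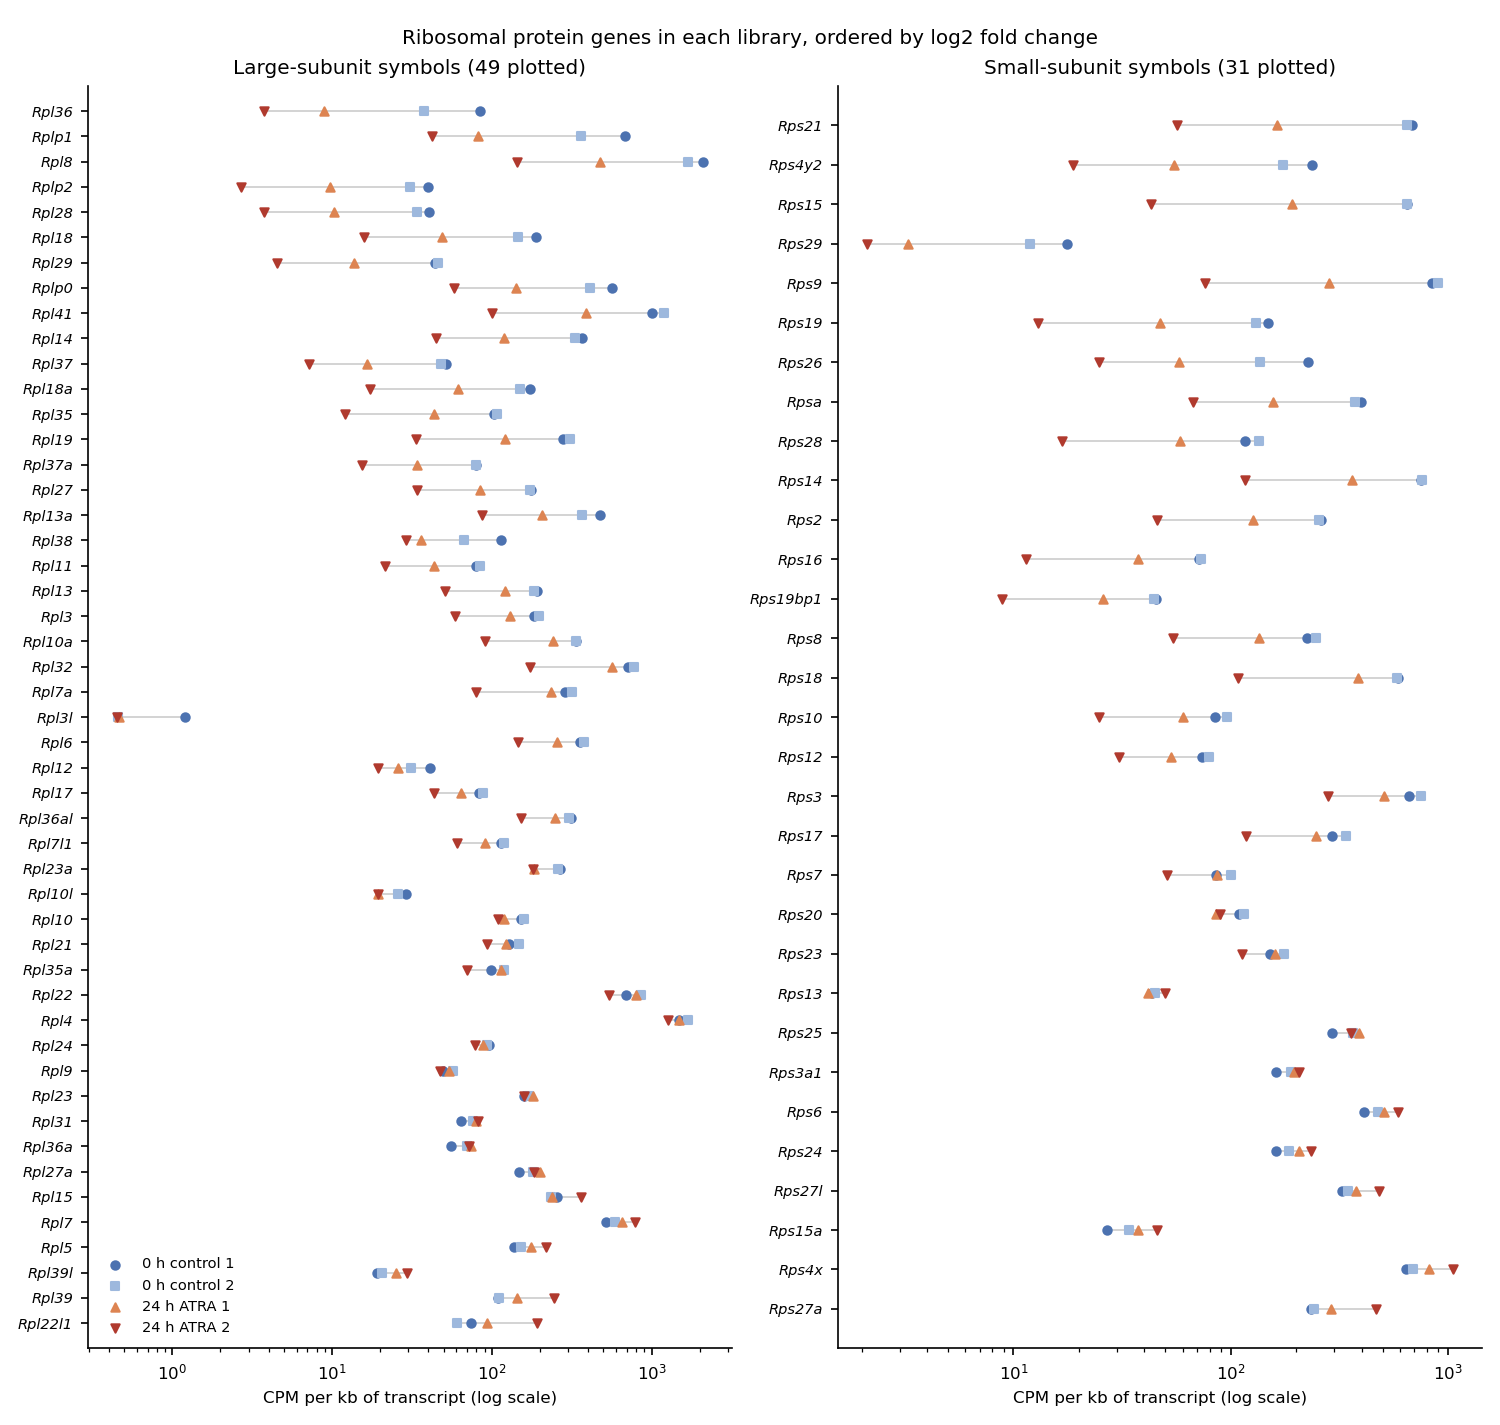
Level of 80 of the 82 tested ribosomal protein genes in CPM per kb of transcript (x axis, log scale) in the 4 libraries, 1 row per gene, large-subunit symbols on the left and small-subunit symbols on the right, ordered by log2 fold change with the lowest on top. Most rows at the top run from controls on the right to the second ATRA library on the left, and the order is turned in the rows at the bottom.

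The result depended on single libraries. The second ATRA library lay farther from the controls than the first: the members' median log2 ratio to the control mean was -0.52 in the first and -1.54 in the second, against -0.01 and -0.05 over all tested genes. Without the first ATRA library, 12 of 85 members were called higher and 58 lower, and so were 35% and 38.5% of all genes. Without the second, 6 were higher and 49 lower, beside 24.6% and 27.5% of all genes. In both fits the spread came from the 2 controls alone, and the lone ATRA library was assumed to vary as they did. Without the first control 0 of 81 members were called higher and 2 lower (Rplp1 and Rps21), beside 0.259% and 0.315% of all genes. Without the second control 0 of 84 were higher and 9 lower, beside 0.34% and 1.91%.

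Fold changes followed GC content. Across the 82 members the rank correlation of log2 fold change with transcript GC content was -0.70, and with coding GC content -0.84. Over the 14146 tested genes with a GC value it was -0.75. These points share the same 4 libraries, and genes are not independent replicates. In the 16 members with 56% GC or more, the median log2 ratio to the controls was -1.43 in the first ATRA library and -3.22 in the second, while the 2955 tested genes of that range had -1.0 and -2.31. In the 15 members below 48% GC the medians were 0.24 and 0.18, and the 5061 genes of that range had 0.41 and 1.05. In each of the 4 GC ranges, members thus had a lower median than all genes in both ATRA libraries. The trend was also present between replicates: from the first to the second ATRA library the members of 56% GC or more had a median log2 change of -1.5, and from the first to the second control -0.07.

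With an offset for the GC trend of each library, 22 of the 82 members (26.8%) fell and 0 rose, where 7.23% of all tested genes fell and 7.84% rose (edgeR quasi-likelihood, adjusted p under 0.05). The members' median log2 fold change was then -0.63 against 0.01 over all genes, with 67 of 82 negative. The 22 were 13 large-subunit and 9 small-subunit symbols. In all 22 both ATRA libraries lay below both controls in CPM, as in 41.5% of all tested genes. The calls came from these same libraries, so that separation adds no support to them. These calls depended on the settings. Leaving out either control ended all 22, and 0.028% and 0.0139% of all genes were then called lower. With GC content taken from the coding sequence only Rplp0 and Rplp1 of the members fell, beside 1.42% of all genes. With GC from the longest transcript 20 of the 22 fell, and 8.8% of all genes were called higher and 7.84% lower. With GC and length together 21 of the 22 fell. The GC offset was known from earlier results of these data, and its fit is an alternative to the main test.

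**Figure D3:**
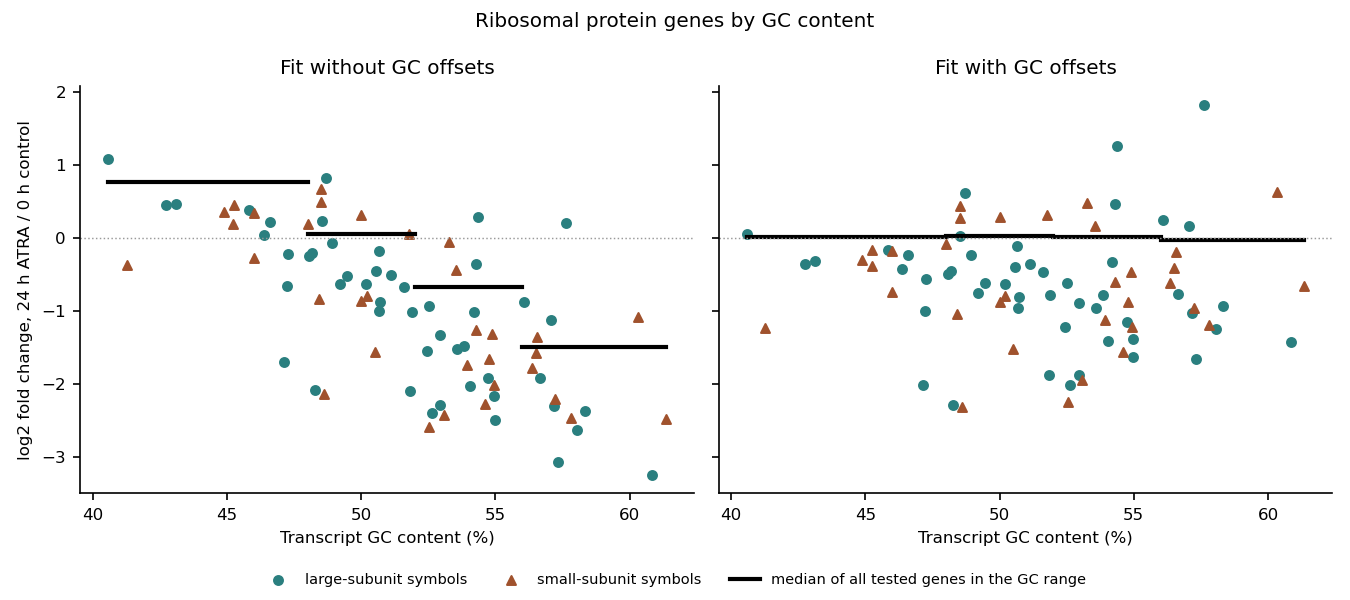
log2 fold change of ATRA over control (y axis) against transcript GC content (%, x axis) for the 82 tested members, without (left) and with (right) an offset for each library's GC trend. Black lines give the median of all tested genes in 4 GC ranges. On the left the points run downwards with GC content (rank correlation -0.70), and on the right less so (-0.19), with most points below 0.

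Without GC offsets the ribosomal stalk had some of the lowest fold changes. The stalk is the arm of the large subunit that recruits elongation factors, with Rplp0 as its base and Rplp1 and Rplp2 as its tips. Rplp0 (chr5:115559467-115563727) had 766 and 563 CPM at 0 h and 193 and 78.4 CPM after ATRA. Rplp1 (chr9:61913284-61914542) had 339 and 179 CPM at 0 h and 40.9 and 21.1 CPM after ATRA. Rplp2 (chr7:141447370-141451585) had 38.5 and 29.6 CPM at 0 h and 9.40 and 2.58 CPM after ATRA. In all 3 genes both ATRA libraries were below both controls. Their log2 fold changes were -2.29 ± 0.49, -3.06 ± 0.49 and -2.49 ± 0.62 (SE) without GC offsets, with adjusted p from 0.068 to 0.080 by edgeR. With GC offsets all 3 fell, by 1.87, 1.65 and 1.63 on the log2 scale (adjusted p = 0.0251, 0.0272 and 0.0352 by edgeR). Some other members had lower log2 fold changes than all 3 in that fit, among them Rps21 (-2.25).

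Among the other large-subunit genes the most abundant per length moved unequally. Rpl8 (chr15:76904078-76906314), near the peptidyl transferase centre, had 2094 and 1696 CPM per kb at 0 h and 473 and 143 CPM per kb after ATRA. Its log2 fold change was -2.62 ± 0.60 (adjusted p = 0.0783 by edgeR), and it fell with GC offsets (-1.25 ± 0.17, adjusted p = 0.0196). Rpl4 (chr9:64173375-64178666), which lines the exit tunnel, had 1492 and 1702 CPM per kb at 0 h and 1493 and 1277 CPM per kb after ATRA. Its groups overlapped, with a log2 fold change of -0.21 ± 0.28 (adjusted p = 0.576 by edgeR). Rpl36, of 60.8% GC, had the lowest log2 fold change of all members, -3.24 ± 0.62, from 32.1 and 14.4 CPM to 3.39 and 1.44 CPM. With GC offsets it was -1.43 ± 0.36 (adjusted p = 0.0540 by edgeR), short of the threshold. The highest in this subunit were Rpl22l1 (1.08), Rpl39 (0.82) and Rpl39l (0.46), described with the paralogs.

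In the small subunit, Rps21, Rps4y2 and Rps15 had the lowest log2 fold changes. Rps21 (chr2:180257377-180258445) had 268 and 255 CPM at 0 h and 64.6 and 22.4 CPM after ATRA. Its log2 fold change was -2.58 ± 0.53 (adjusted p = 0.0763 by edgeR), and it fell with GC offsets (-2.25 ± 0.35, adjusted p = 0.0240). Rps15 had a log2 fold change of -2.46 ± 0.69 and, with GC offsets, -1.19 ± 0.29 (adjusted p = 0.0531 by edgeR). Rps9, among the most abundant small-subunit genes per length, had 846 and 897 CPM per kb at 0 h and 284 and 75.9 CPM per kb after ATRA, and fell with GC offsets (-1.56 ± 0.34, adjusted p = 0.0437 by edgeR). Rpsa, the laminin receptor precursor that sits on the small subunit, had 636 and 595 CPM at 0 h and 251 and 107 CPM after ATRA. Its log2 fold change was -1.78 ± 0.45 (adjusted p = 0.0808 by edgeR). With GC offsets from the transcript used (56.3% GC) Rpsa fell, with a log2 fold change of -0.61 (adjusted p = 0.0238 by edgeR). With those from the longest transcript (50.6% GC) the log2 fold change was -1.70 (adjusted p = 0.0348 by edgeR). With those from the coding sequence (56.7% GC) it was -0.85 (adjusted p = 0.0551 by edgeR), short of the threshold.

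At the other end of the small subunit stood Rps27a, Rps4x and Rps15a. Rps27a, made as a fusion with ubiquitin, had 233 and 240 CPM per kb at 0 h and 289 and 465 CPM per kb after ATRA. Rps4x, the X-linked S4 gene, had 639 and 688 CPM per kb at 0 h and 818 and 1050 CPM per kb after ATRA. In both genes the ATRA libraries lay above the controls. Their log2 fold changes were 0.67 ± 0.32 and 0.49 ± 0.28 (adjusted p = 0.163 and 0.214 by edgeR), and 0.43 and 0.27 with GC offsets. With GC from the coding sequence they were -0.07 and -0.04. Rps15a had 0.45 ± 0.28 without and -0.16 with GC offsets. Over the 5 treatments of GC content (none, 3 sources of GC, and GC with length), 53 of the 82 members were negative in every fit and 3 positive in every fit (Rpl27a, Rpl39 and Rps6), and in 26 the sign changed.

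With GC and length offsets 2 members were called higher and 22 lower, against 7.93% and 7.58% of all tested genes. Of the 2 called higher, Rpl31 had 40.2 and 48.2 CPM at 0 h and 49.8 and 51.8 CPM after ATRA, a near equal level. Its log2 fold change in that fit was 2.05 (adjusted p = 0.0486 by edgeR), with a GC content of 57.6% in the transcript used. With GC offsets alone that transcript gave 1.82 (adjusted p = 0.0503 by edgeR). The longest transcript, of 46.0% GC, gave -0.27 with GC offsets alone (adjusted p = 0.290 by edgeR). GC and length offsets were not fitted with the longest transcript.

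The paralogs did not all follow their parents. Rpl22l1 can take the place of Rpl22 in the large subunit. It had 40.8 and 33.2 CPM at 0 h and 51.2 and 106 CPM after ATRA, all ATRA values above the controls, while Rpl22 had 327 and 408 CPM at 0 h and 376 and 255 CPM after ATRA, with overlap. The log2 ratio of Rpl22l1 to Rpl22 was -3.0 and -3.62 at 0 h and -2.88 and -1.27 after ATRA. The difference of 1.24 was 0.43 with the first ATRA library alone. The transcripts differ in GC content, 40.6% in Rpl22l1 and 47.3% in Rpl22. With GC offsets the log2 fold changes were 0.06 and -0.56 (adjusted p = 0.811 and 0.214 by edgeR).

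**Figure D4:**
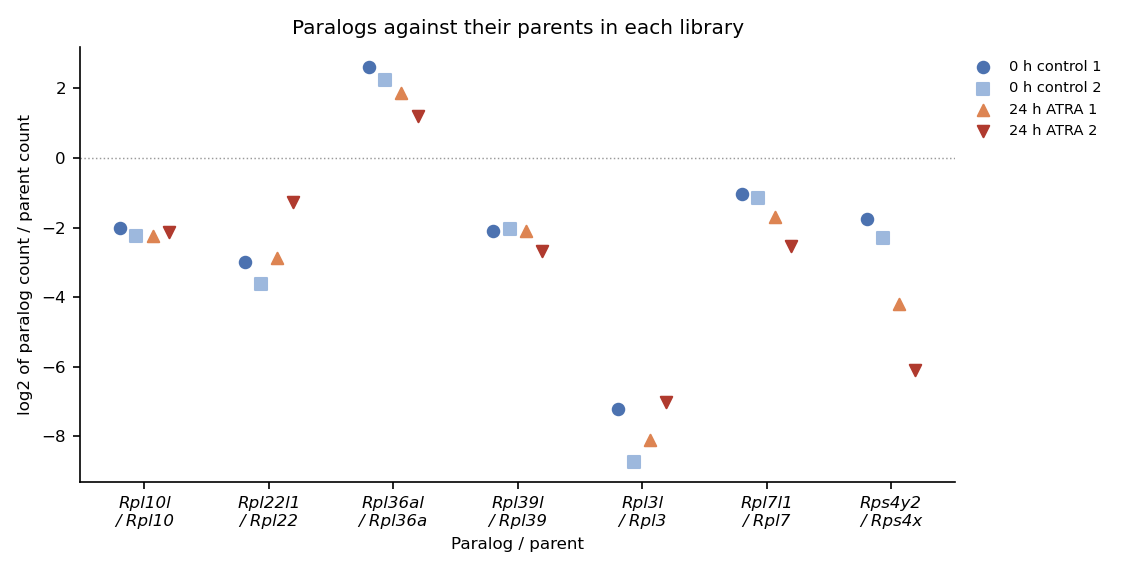
log2 ratio of the count of each paralog to the count of its parent (y axis) in the 4 libraries, for the 7 pairs with both genes tested (x axis). Rpl22l1 to Rpl22 is highest in the second ATRA library (-1.27), Rps4y2 to Rps4x is lowest there (-6.11), and Rpl10l to Rpl10 stays between -2.26 and -2.02.

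Rps27l, a p53 target in other cells, could not be set against its parent. Rps27l had 162 and 173 CPM at 0 h and 187 and 241 CPM after ATRA, with a log2 fold change of 0.35 ± 0.27 (adjusted p = 0.338 by edgeR) and -0.30 with GC offsets. Rps27 held 30, 2, 0 and 1 counts in the 2 controls and the 2 ATRA libraries. Every 50-base stretch of the Rps27 coding sequence printed above also occurs in another annotated gene, while 51.7% of those of Rps27l occur in no other. The level of Rps27 is uncertain, and no ratio is given. Whether the shared sequence lowered its counts was not tested.

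Rpl39l, whose sequence is shown above, and Rpl36al lay on opposite sides of their control values. Rpl39l had 15.5 and 16.5 CPM at 0 h and 20.4 and 23.7 CPM after ATRA. Rpl39 had 66.7 and 68.2 CPM at 0 h and 87.8 and 151 CPM after ATRA, and in CPM both genes were above the controls in both ATRA libraries. The direction of Rpl39l depended on the GC treatment: its log2 fold change was 0.46 in the main fit and -0.32 with GC offsets, and it was negative with the other GC offsets over all 4 libraries. The log2 ratio of paralog to parent differed by -0.31 (exact two-sided permutation p = 0.667), and by -0.91 after counts were divided by the GC trend. Rpl36al had 165 and 160 CPM at 0 h and 130 and 79.6 CPM after ATRA, against 26.8 and 34.0 and then 35.8 and 34.6 CPM in Rpl36a. That ratio differed by -0.89, and by -0.44 after the GC trend. No 50-base stretch of either coding sequence was unique in the annotation, and both levels are uncertain.

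By deposited counts, the ratio of Rps4y2 to Rps4x differed more than that of any other pair. Rps4y2 is an older symbol of Rps4l, which GENCODE lists as a transcribed processed pseudogene (chr6:148354656-148355598). It had 186 and 137 CPM at 0 h and 43.1 and 14.9 CPM after ATRA, below the controls in both. The log2 ratio to Rps4x was -1.75 and -2.29 at 0 h and -4.21 and -6.11 after ATRA. The difference of -3.14 was -0.94 after counts were divided by the GC trend, the pair's GC contents being 61.3% and 48.5%, and was then smaller in size than that of Rpl3l to Rpl3. With GC offsets Rps4y2 fell by 0.66 on the log2 scale (adjusted p = 0.0319 by edgeR).

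Rpl7l1, Rpl10l and Rpl3l were set against Rpl7, Rpl10 and Rpl3. The ratio of Rpl7l1 to Rpl7 differed by -1.03, from -1.03 and -1.15 at 0 h to -1.70 and -2.53 after ATRA, and by -0.61 after counts were divided by the GC trend. Rpl10l, which replaces Rpl10 in male germ cells, kept a ratio between -2.26 and -2.02, with a difference of -0.05 (exact two-sided permutation p = 1). With GC offsets the log2 fold changes of Rpl10l and Rpl10 were -0.36 and -0.39. With GC from the coding sequence (58.9% and 51.1%) they were 0.94 and -0.52. Neither gene was called in these fits. Rpl3l, the muscle form of Rpl3, held 53 and 14 counts at 0 h and 9 and 6 counts after ATRA, with a ratio that differed by 0.42 and overlapped between groups. After counts were divided by the GC trend it differed by 1.38. The 5 markers of muscle and testis summed to 20.2 and 24.8 CPM at 0 h and 2.58 and 6.22 CPM after ATRA, with Tnp1 and Prm1 at 0 in every library. For the 7 pairs tested, no exact permutation p could be below 0.333.

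The deposited levels of ribosomal protein genes differed widely, although their proteins are needed in near equal numbers. In the controls the 77 canonical genes ran from 0 to 1895 CPM per kb, with a median of 168. These values depend on the length of the transcript used. That of Rps15a had 5130 bases, 390 of them coding, and its control mean of 156 CPM became 30.3 CPM per kb. The 10 canonical genes with at least 50% of coding 50-base stretches found in no other gene had 512 to 1895 CPM per kb and a median of 760. The 29 with none had a median of 125 CPM per kb and ran from 1.49 to 1098. Rpl26 had 0 counts in all 4 libraries, and Rpl30, Rpl34 and Rps27 had at most 30 in any library. These 4 were not tested, and 82 of 86 members passed the filter on low counts. A count of 3, the floor used here, is 0.0968 CPM in the deepest library and 0.271 CPM in the shallowest, which covers counting error only. Some pseudogene symbols held reads: Rpl31-ps12 had 2446 counts in the first control. How reads with several matches were handled is not given in the sources used here, and the deposited line for them was 0 in all 4 libraries.

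The 10 canonical genes with mostly unique coding sequence were all negative in the main fit, with a median log2 fold change of -1.51 against -0.59 in the 28 tested genes with none. With GC offsets these medians were -1.11 and -0.54, and 4 of the 10 and 5 of the 28 were called lower, beside 7.23% of all tested genes. The difference between these 2 sets was not tested.

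Other genes of protein synthesis were read the same way. Fau encodes a small-subunit protein as a fusion with a ubiquitin-like protein, outside the symbol rule. In the list of 17 further ribosomal and growth-regulated mRNAs, 0 passed the main test and the median log2 fold change was 0.11, which turned to -0.12 with GC offsets and was negative with the other GC offsets over all 4 libraries. Fau had 77.8 and 60.8 CPM at 0 h and 31 and 9.39 CPM after ATRA. Its log2 fold change in the main fit was -1.77, unlike the median of the list. With GC offsets and each library left out in turn, that of Fau ran from -0.65 to -0.18. With GC offsets 1 gene of the list fell and 0 rose, beside 7.23% and 7.84% of all tested genes. Of 6 elongation factors 0 passed the main test, with a median of -0.92 and of -0.38 with GC offsets, and Eef2, the translocase, fell with GC offsets (-0.93, adjusted p = 0.0240 by edgeR).

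The 76 mitochondrial ribosomal protein genes, which serve the organelle's own ribosome, had a median log2 fold change of -0.40, with 55 negative and 0 called. With GC offsets 11 of the 76 fell (14.5%) and 0 rose, and the median was -0.35. The 45 ribosome biogenesis genes had a median of -0.49, with 30 negative and 0 called. With GC offsets 12 of the 45 fell (26.7%) and 0 rose, and the median was -0.41. Over all tested genes 7.23% fell and 7.84% rose in that fit. Rrp9, a component of the small nucleolar U3 particle, had 143 and 99.6 CPM at 0 h and 24.7 and 11.8 CPM after ATRA, and fell with GC offsets (-1.01, adjusted p = 0.0221 by edgeR). Beside these lists the cytosolic members had the lower median in both fits except against the elongation factors without GC offsets, a description with no test.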

How the data were processed

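RNA from 4 libraries was measured as counts per gene symbol, whole numbers that the authors deposited without normalization. Build mm10, HTSeq 0.6.0, TopHat2 2.0.7, Cuffdiff 2.0.2 and Cufflinks 2.0.2 are listed in the submitters' processing notes. Which annotation and strand setting were used is not given in the sources used here. The summary lines for reads without a gene were left out of library sizes. The line for reads that the counting assigned to no feature held 63.4% to 66.2% of all entries. Where in the genome those reads lay is not given.

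Groups came from the sample titles. Counts were filtered (filterByExpr), scaled by TMM and tested across all genes with edgeR 4.0.16 (quasi-likelihood, robust, Benjamini-Hochberg, threshold 0.05), in R 4.3.3. DESeq2 1.42.0 was an alternative. GC offsets were natural splines (5 degrees of freedom) fitted per library by robust regression on log2 CPM with a prior count of 2. GC content came from 1 GENCODE M21 transcript per gene. Where that transcript had no annotated coding sequence, the whole transcript stood in for it. Rules for choosing that transcript were compared on transcript lengths, with the counts in view and before any fit: the longest; the best APPRIS and support level, then longest or then shortest; and RefSeq first. The third of these was used. Promoter windows were looked at and not used. Several edgeR dispersion settings were also tried, because the main fit called fewer genes than an earlier analysis of these files had (the reason was not found). The edgeR settings and the fit with the longest transcript are in the closing section, and the other transcript rules were not fitted. Coding and whole-transcript 50-mers were searched in all GENCODE transcripts on both strands. The fits were also run on simulated counts, without a GC trend and with a linear one. The simulated spread was smaller than that of the main fit here (coefficient of variation 28.3%). That run did not cover the larger spread.

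The members, lists and the GC correction were chosen with earlier results of these data known. Genes were named by rule: per subunit the 3 highest and 3 lowest log2 fold changes and the 2 most abundant per kb; the stalk genes and Rpsa; all paralogs with parents; Rps19bp1; 2 genes per list by smallest p; and 3 ATRA targets. Rpl26, Rpl27a, Rpl30, Rpl31, Rpl31-ps12, Rpl34 and Rps6 were named after their values were seen. A few genes that the rule names are not reported here.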

Additional observations from a re-analysis of the deposited data

How the results depend on the processing

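Both the calls and many of the fold changes depended on the processing. Counts of genes called, higher and lower over all genes, were 62 and 24 in the main fit and moved as follows: 101 and 55 with DESeq2 size factors, 816 and 1991 with no filter on low counts, 25 and 8 with at least 5 CPM in 2 libraries, and 1777 and 2573 with DESeq2. They were 1118 and 1031 with GC offsets, 1130 and 1081 with GC and length offsets, 1254 and 1118 with GC from the longest transcript, and 263 and 202 with GC from the coding sequence. Members called were 0 in the main fit. No filter gave 33 lower, DESeq2 1 higher and 36 lower, GC offsets 22 lower, GC and length offsets 2 higher and 22 lower, GC from the longest transcript 1 higher and 24 lower, and GC from the coding sequence 2 lower.

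The GC offsets from other sequences, the leave-one-out fits with offsets and the edgeR settings were added after the data were seen. A gene-wise dispersion gave 2347 higher and 3054 lower over all genes and 1 higher and 35 lower among members. A dispersion set to 0.05 gave 95 and 53 over all genes, and a fit that was not robust and had no abundance trend gave 87 and 42, with 0 members called in both. The other 7 edgeR settings and TMM without the members gave counts within 1.5 times the main ones.

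The replicate block gave 1237 higher and 2975 lower over all genes, and 0 higher and 41 lower among members. With the block and GC offsets these were 1253 and 1177 over all genes and 1 and 38 among members. The replicate numbers were not shown to pair the libraries: the differences between replicates 1 and 2 correlated by 0.268 between groups over 10826 genes, with 2 pairs only.

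Leaving out each library in turn gave from 37 to 5214 higher and 45 to 5738 lower calls over all genes without offsets, 10 to 3908 and 2 to 3709 with GC offsets, and 24 to 4014 and 7 to 3896 with GC and length offsets. Members called ran from 0 to 12 higher and 2 to 58 lower, from 0 to 9 and 0 to 57, and from 0 to 13 and 0 to 52 in the same order. The high ends came without the first ATRA library, and the low ends without a control. In the fits with no offsets the coefficients of variation were 9.27% without an ATRA library and 40.1% to 40.2% without a control. With GC offsets they were 7.18% to 7.19% and 22.41% to 22.45%. With GC and length offsets they were 6.92% and 22.27% to 22.31%. The members' median log2 fold change ran from -1.71 to -0.52 without offsets, -1.10 to -0.42 with GC offsets and -0.86 to -0.37 with GC and length offsets, negative in every fit. For large-subunit symbols the 3 ranges were -1.67 to -0.50, -1.10 to -0.45 and -0.86 to -0.38, and for small-subunit symbols -2.01 to -0.58, -1.01 to -0.36 and -0.76 to -0.24. GC and length offsets gave -0.49 for large-subunit symbols.

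The list of other ribosomal and growth-regulated genes changed sign, with medians of -0.12 (GC offsets), -0.035 (GC and length), -0.13 (block with GC), -0.051 (longest transcript) and -0.18 (coding sequence). Leave-one-out medians ran from -0.10 to 0.32, -0.18 to 0.04 and -0.11 to 0.08. For elongation factors they ran from -1.5 to -0.51, -0.73 to -0.20 and -0.69 to -0.18, and for mitochondrial ribosomal genes from -0.55 to -0.36, -0.48 to -0.31 and -0.37 to -0.28. The mitochondrial median was -0.27 with GC and length offsets and -0.30 with GC from the coding sequence.

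Several log2 fold changes of named genes changed sign, none of them called in the main fit. In the order GC offsets, GC and length, block with GC, longest transcript and coding sequence, Rpl39l had -0.32, -0.14, -0.33, -0.29 and -0.40, Rps15a -0.16, -0.21, -0.16, -0.11 and -0.25, Rpl3l 0.25, 0.30, 0.30, 0.27 and 0.028, Rpl7 -0.17, -0.057, -0.17, -0.13 and -0.18, and Rps27l -0.30, -0.043, -0.30, -0.42 and -0.34. Rpl36a had -0.23 (GC offsets), -0.23 (block with GC), -0.19 (longest transcript) and -0.17 (coding sequence). With GC from the coding sequence Rpl22l1 had -0.022, Rps4x -0.043, Rps27a -0.067 and Rpl10l 0.94. Leave-one-out ranges, over the fits with and without offsets, were -0.55 to 0.56 for Rpl39l, -0.085 to 1.5 for Rpl22l1, -0.38 to 0.62 for Rps15a, -1.04 to 0.045 for Rpl22, -0.45 to 0.38 for Rpl36a, -1.40 to 0.95 for Rpl3l, -0.26 to 0.49 for Rpl7, -0.38 to 0.51 for Rps27l and -2.35 to 0.076 for Rps19bp1.

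With counts divided by the GC trend, the difference in share was -0.66 percentage points, and the paralog ratios differed by -0.44 (Rpl36al to Rpl36a), -0.91 (Rpl39l to Rpl39), 1.38 (Rpl3l to Rpl3) and -0.94 (Rps4y2 to Rps4x). Without the most abundant member the large to small ratio differed by -0.20. The cause was not tested for any of these changes. With 2 libraries a group and shallower ATRA libraries, members with few counts such as Rpl3l have little precision.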
